A study of Hydrangea macrophylla with 27 samples.

Results

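The 6 libraries described here are the 3 from unbent stems collected at 1 h (group NS1H) and the 3 from stems collected 15 min before the treatment hour (group T0), chosen by these labels from 27 libraries in 9 groups of 3. All 6 were made from whole stems of wild-type Hydrangea macrophylla 'Wudu', an ornamental shrub. The plants were potted micro-cuttings kept in a growth chamber at 23 °C by day and 21 °C by night, with 16 h of LED light a day. The light was 100 µmol per square metre and second. Plants of both groups had spent 5 weeks as cuttings and had been irrigated 2 days before. None of these stems had been bent. In the series, other plants were bent 12 times by a moving curtain between 9 and 10 in the morning, and bent (S) and unbent (NS) stems were collected 1, 3, 24 and 72 h later. T0 and the NS groups are the controls of that design, and the comparison asks how untreated stems differed between the moment before the morning treatment and 1 h after it. Clock time and every other circumstance of that morning differ between the groups together and cannot be told apart. Whether the time runs from the first or the last bending, where the unbent plants stood meanwhile and how many stems 1 library holds are not given in the sources used here. RNA was poly(A)-enriched, and the values are expected read counts on 142016 assembled transcript clusters. A filter for low counts left 52918 to test. A cluster is called here by its best Swiss-Prot match, often a protein of Arabidopsis thaliana, and clusters with the same name may be paralogs or fragments of 1 gene. The nearest plant entry in the annotation sometimes carries another member's name, as REVEILLE 7-like for the cluster named RVE1 or APRR9 for APRR5, so the family is surer than the member.

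As background, plants keep time with a clock in which morning-phased MYB factors such as LHY and the REVEILLE proteins, day-phased pseudo-response regulators and evening-phased genes such as GIGANTEA repress and activate each other in turn. Its outputs reach light signalling, chlorophyll synthesis and growth. Touch, wounding, cold and drought act within minutes to hours through cytosolic calcium, jasmonate and transcription factors of the AP2/ERF, WRKY, MYB and bHLH families. Stems respond to touch with many of the same genes, among them calmodulin-like proteins and xyloglucan endotransglucosylases, which were first known as touch-induced genes in Arabidopsis.

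Total expected counts were 15.0 to 18.3 M per library in T0 and 14.4 to 17.8 M in NS1H. Clusters of ribosomal RNA took 3.06% to 8.45% of counts in T0, highest in replicate 2, and 2.69% to 3.22% in NS1H. Clusters of Hydrangea ringspot virus took 4.28% to 5.97% in T0 and 2.35% to 4.85% in NS1H, so plants of both groups carried viral RNA. Insect matches stood at 0.0534% in T0 replicate 3 and at no more than 0.00584% in the other 5 libraries. Without the clusters of ribosomal RNA, virus, insect and human matches the comparison below gave 5518 calls in place of 5455, with 3592 higher and 1926 lower, and the 147 named clusters left kept their direction and their side of the threshold. The stem identity of the libraries was checked on marker lists. Of xylem markers 43 of 44 listed clusters were tested, with a summed level of 1591 to 1866 CPM (counts per M counts of the library, after TMM normalization) in T0 and 1590 to 2448 CPM in NS1H. Phloem markers summed to 614.9 to 773.0 CPM and 638.7 to 748.2 CPM over 19 clusters, and no tested marker of either tissue was at 0 in all 6 libraries. Markers of roots summed to 104.4 to 132.7 CPM over 10 tested clusters and those of flowers to 32.5 to 40.8 CPM over 6, present in all 6 libraries. Epidermis markers summed to only 141.2 to 196.6 CPM over 15 clusters. Sums over unlike numbers of clusters do not by themselves set stems apart from other organs.

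Untreated stems differed widely between the 2 collections. Of the 52918 clusters tested, 5455 (10.3%) passed an adjusted p of 0.05, 3416 of them higher at 1 h (6.46%) and 2039 lower (3.85%). At least 2-fold higher were 1485 (2.81%) and at least 2-fold lower 639 (1.21%), while at least 4-fold higher were 488 and at least 4-fold lower 156. The median log2 fold change, given throughout as NS1H minus T0, was 0.86 among the clusters that rose, -0.69 among those that fell and -0.027 over all clusters tested. In 5332 of the 5455 (10.1% of all tested) the 3 libraries of each group did not overlap, while regardless of the test this held for 25.8% of all clusters tested. By gene list, the highest shares of rises were among ethylene and ERF genes (36.3% of tested clusters), calcium and touch genes (33.0%), jasmonate genes (31.9%), gibberellin genes (27.3%) and abscisic acid genes (23.3%). The highest shares of falls were in the morning clock (58.3%), clock outputs (40%), mesophyll markers (34.4%) and nuclear photosynthesis genes (23.5%). Cell wall genes rose in 19.2% and fell in 19.9% of clusters. No test compared these shares with each other.

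**Figure D1:**
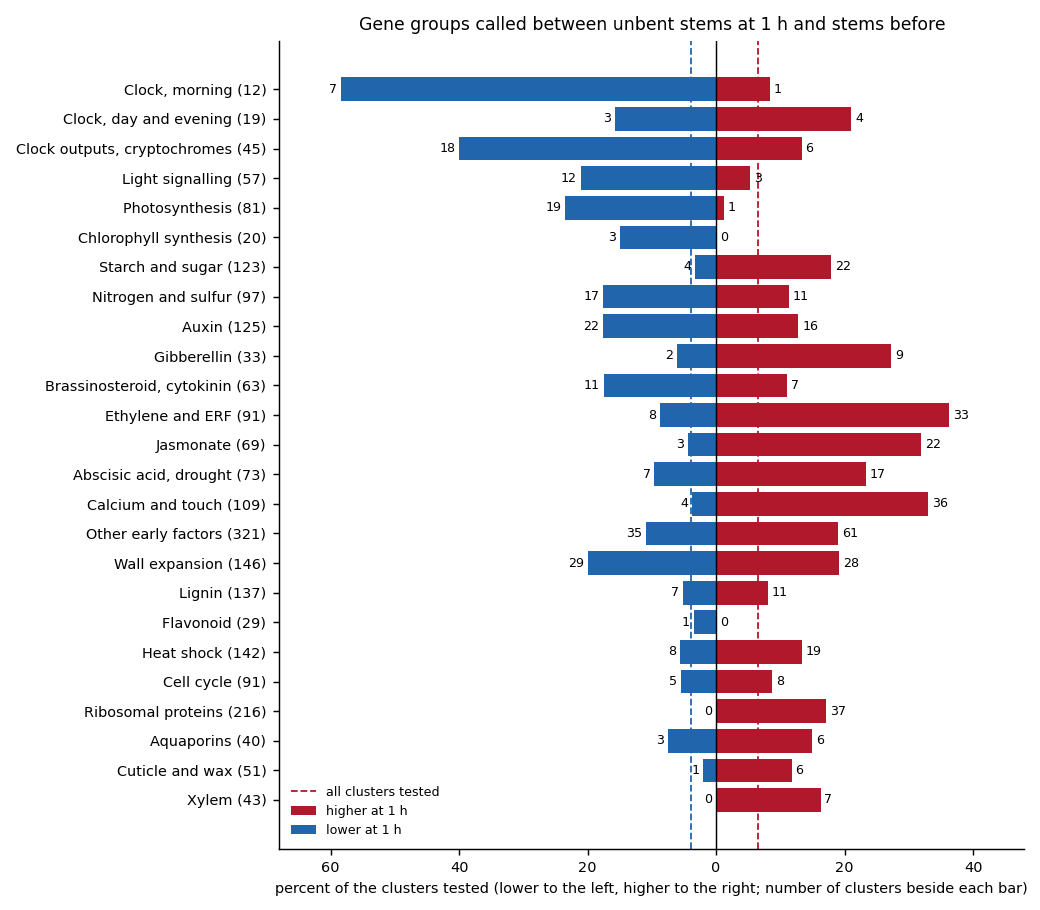
Percent of the tested clusters of each gene group that passed an adjusted p of 0.05 between NS1H and T0, lower to the left and higher to the right, with the number of clusters beside each bar and the number tested in parentheses. Dashed lines give the share over all clusters tested (6.46% higher, 3.85% lower); the ethylene and ERF bar reaches 36.3% and the morning clock bar 58.3%.

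Of the 12 largest rises that the naming rule gave, 5 were transcription factors of the AP2/ERF family, which bind ethylene- and drought-response elements. Of 91 tested clusters of ethylene synthesis, ethylene signalling and the ERF factors 33 rose and 8 fell, with a median log2 fold change of 0.20. ERF025, a factor of the DREB subfamily, stood at 2.01, 0.711 and 3.26 CPM in T0 and at 136, 162 and 209 CPM in NS1H. Its log2 fold change was 6.35 ± 0.41 (± SE, as for every log2 fold change below; adjusted p = 1.33e-09 in edgeR). It was high in every 1 h library and near the floor in every library before. Its close relative ERF026 stood at 4.15, 1.62 and 2.68 CPM before and at 87, 99.1 and 116 CPM at 1 h (log2 fold change 5.17 ± 0.36, adjusted p = 3.83e-09). DREB1A, which in Arabidopsis switches on cold-acclimation genes, stood at 1.41, 0.711 and 5.1 CPM and then at 73.5, 90.3 and 109.9 CPM (5.16 ± 0.45, adjusted p = 8.62e-08). DREB1D, its drought-induced homolog, stood at 2.81, 0.970 and 9.61 CPM and at 151, 159.5 and 177 CPM (5.11 ± 0.47, adjusted p = 1.5e-07). The libraries of the 2 groups lay far apart for all 4 genes, and T0 replicate 3 was the highest T0 library for ERF025, DREB1A and DREB1D.

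ERF110 stood at 0.335, 0.582 and 0.893 CPM before and 25, 27.7 and 39 CPM at 1 h (5.6 ± 0.62, adjusted p = 2.26e-06). ABR1, named in Arabidopsis as a repressor of abscisic acid responses, stood at 1.81, 1.42 and 1.21 CPM and 17.2, 17.9 and 23.6 CPM (3.74 ± 0.26, adjusted p = 9.61e-13). ERF118 rose from 19.5 ± 1.99 CPM to 66.3 ± 1.61 CPM (SD, n = 3). The family also held genes that went the other way. RAP2-4, a DREB factor tied to light and ethylene responses in Arabidopsis, stood at 152, 137 and 146 CPM before and fell to 61.3, 60.1 and 65 CPM (-1.22 ± 0.070, adjusted p = 1.44e-18). RAP2-10 fell, with a log2 fold change of -1.31 ± 0.14. ERF5 had the largest fall of the family: 78.8, 64.5 and 109.5 CPM in T0 and 16.1, 14.8 and 13.9 CPM in NS1H (-2.5 ± 0.31, adjusted p = 9.12e-06). Its T0 libraries stood above every other unbent group, with mean levels of 16.4, 11 and 9.74 CPM at 3, 24 and 72 h.

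Members of other stress-response families changed in both directions. Among 321 tested clusters of WRKY, MYB, NAC, bHLH, zinc finger and DREB factors 61 rose (19%) and 35 fell (10.9%). Over all clusters tested 6.46% rose and 3.85% fell, so both shares were higher in this list. The median was -0.026, close to that over all clusters, and 152 of the 321 lay above 0. WRKY40, induced by pathogens and wounding in Arabidopsis, stood at 1.67, 2.52 and 7.3 CPM before and 78, 96.3 and 109.7 CPM at 1 h (4.57 ± 0.41, adjusted p = 1.1e-07). BHLH92 stood at 0.335, 0.517 and 0.841 CPM and 20.8, 23.9 and 25.8 CPM (5.32 ± 0.42, adjusted p = 6.1e-09). MYB73, whose nearest plant entry is named MYB44-like, and WRKY15 rose, with log2 fold changes of 1.45 ± 0.087 and 1.17 ± 0.091, whereas BHLH51 fell, with a log2 fold change of -1.3 ± 0.12. For these named factors no T0 library reached the range of NS1H, though the T0 libraries of WRKY40 were spread widely, with replicate 3 highest.

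**Figure D2:**
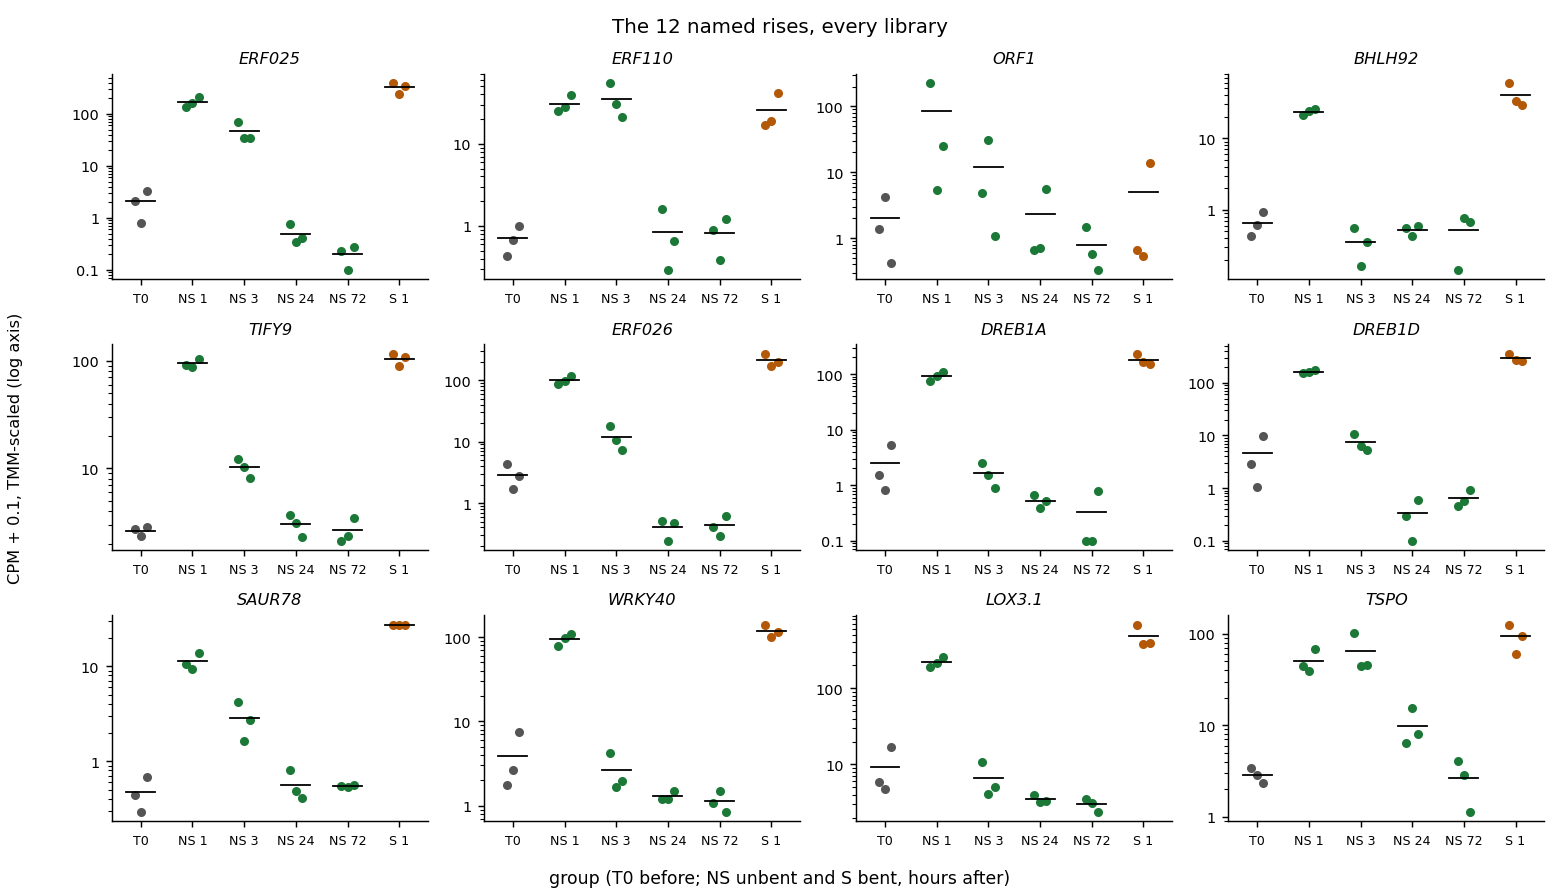
Level of the 12 named rises in every library of T0, of the unbent groups at 1, 3, 24 and 72 h (NS) and of the bent stems at 1 h (S), as CPM + 0.1 on a log axis; points are libraries and bars are means. ERF025 goes from 1.99 CPM in T0 to 169 CPM at 1 h and 0.400 CPM at 24 h, while ORF1 rests on widely scattered 1 h libraries.

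Jasmonate genes rose at the steps of synthesis, breakdown and repression alike. Of 69 tested clusters 22 rose and 3 fell, with a median of 0.16. LOX3.1, a 13-lipoxygenase of the first step of jasmonate synthesis, stood at 5.83, 4.66 and 17 CPM before and 192, 214 and 258 CPM at 1 h (4.56 ± 0.44, adjusted p = 3.31e-07). AOC, the allene oxide cyclase further down the pathway, rose from 149.5 ± 5.82 to 252 ± 9.21 CPM (0.76 ± 0.065, adjusted p = 5.33e-13). FAD7, the plastid desaturase that makes the fatty acid precursor, was chosen after its values were seen and stood at 31.5, 26.2 and 23.9 CPM and 179, 198 and 239 CPM (2.92 ± 0.20). No library of 1 group reached the range of the other for these enzymes.

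Jasmonate responses are held back by the JAZ repressors, which are members of the TIFY family and are themselves induced by the hormone. TIFY9, the best match to JAZ10, stood at 2.61, 2.26 and 2.73 CPM in T0 and 92, 86.9 and 105 CPM in NS1H (5.21 ± 0.22, adjusted p = 2.75e-14). TIFY10A rose, with a log2 fold change of 1.7 ± 0.14 (adjusted p = 2.85e-10), and TIFY6B, at a high level already before, rose from 481 ± 28.2 to 694 ± 28.3 CPM. A cluster of CYP94C1, which oxidizes the active jasmonate conjugate, had a larger fold change than any gene named by rule. It was chosen after its values were seen, since another cluster of that name had the smaller p. It stood at 1.54, 2.78 and 2.84 CPM before and 365, 357 and 383 CPM at 1 h (7.25 ± 0.55, adjusted p = 1.14e-08), then at means of 14.5 CPM at 3 h and 1.22 CPM at 24 h. The 1 h libraries lay close together, and no later unbent group came near them.

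Calcium and touch genes rose in about the same share as jasmonate genes. Of 109 tested clusters of calmodulins, calmodulin-like proteins, calcium-dependent kinases and CBL-interacting kinases 36 rose and 4 fell, with a median of 0.17. The count of falls was 1 without NS1H replicate 3, and 2 without NS1H replicate 1 or without T0 replicate 2. CPK28, a calcium-dependent kinase of immune and developmental signalling, stood at 36.4, 39.5 and 42.7 CPM before and 98.9, 115 and 131 CPM at 1 h (1.54 ± 0.093, adjusted p = 9.16e-17). NADKC, the calmodulin-dependent NAD kinase that feeds the oxidative burst, rose from 9.64, 11.7 and 10.8 to 42.2, 30.7 and 35.1 CPM (1.75 ± 0.12, adjusted p = 7.6e-16). CIPK6 and CIPK18, kinases that act with calcineurin B-like calcium sensors, rose, with log2 fold changes of 1.36 ± 0.082 and 1.59 ± 0.11.

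Several further genes, some of them known from touch or wall signalling in Arabidopsis, are given here after their values were seen. All of them rose, and being picked they say nothing of the shares of their families that rose or fell. XTH22, known there as the touch gene TCH4, stood at 3.42, 2.97 and 11.2 CPM before and 27.4, 28.9 and 36.2 CPM at 1 h (2.35 ± 0.45, adjusted p = 0.0012), a call that was lost in the fit of the 6 libraries alone (adjusted p = 0.0802). The T0 libraries spread widely for it, with replicate 3 highest. CML27, a calmodulin-like protein, stood at 91, 79.8 and 132 CPM and 489, 553 and 609.6 CPM (2.45 ± 0.25). CPK1 stood at 11.3, 11.7 and 35.2 CPM and 185, 201 and 239 CPM (3.4 ± 0.34). FER, the FERONIA receptor kinase that monitors the cell wall, stood at 30.6, 29.9 and 38.8 CPM and 225, 224 and 241 CPM (2.79 ± 0.16, adjusted p = 1.83e-10). For FER the NS1H libraries lay close together, while T0 replicate 3 stood above the other T0 libraries. ERD4, of the CSC1-like family of stretch- and osmosensitive channels, went from 127 ± 7.37 to 860.4 ± 116 CPM (2.76 ± 0.22). SLAH3, an anion channel, rose from 11.4, 11.9 and 12.8 CPM to 111, 113 and 108 CPM (3.19 ± 0.094, adjusted p = 7.96e-31), with almost no spread within a group.

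Abscisic acid and drought genes rose in 17 and fell in 7 of 73 tested clusters, with a median of 0.081. NCED1, the rate-limiting dioxygenase of abscisic acid synthesis, stood at 7.77, 9.12 and 10.5 CPM before and 29.2, 29.6 and 31.9 CPM at 1 h (1.72 ± 0.14, adjusted p = 8.02e-14). AHG1, a phosphatase that restrains the hormone's signal, rose, with a log2 fold change of 2.74 ± 0.21 (adjusted p = 6.88e-15), while AIP1, another phosphatase of that class, fell, with a log2 fold change of -0.68 ± 0.085. ERD15 fell too, from 189 ± 10.1 to 124 ± 6.98 CPM. LTI65, a target induced by cold and abscisic acid and chosen after its values were seen, stood at 12.9, 15.6 and 17.8 CPM and 149, 166 and 244 CPM (3.59 ± 0.32), with means of 324 CPM at 3 h and 49.7 CPM at 24 h. MAPKKK17, a kinase of abscisic acid signalling also chosen after the fact, rose, with a log2 fold change of 2.54 ± 0.27. TSPO, a membrane protein induced by abscisic acid and salt in Arabidopsis, was the last of the 12 largest rises, at 3.28, 2.78 and 2.26 CPM before and 43.9, 39.2 and 68.6 CPM at 1 h (4.2 ± 0.52, adjusted p = 8.1e-06). Its mean was still 64.1 CPM at 3 h.

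The sugar genes that rose with the smallest p act in trehalose metabolism and sugar transport. Of 123 tested clusters of starch and sugar metabolism 22 rose and 4 fell, with a median of 0.052. Between 1 and 2 of the falls were left when any library but NS1H replicate 1 was omitted. TPS7, of the trehalose-phosphate synthase family, stood at 73, 74 and 82.6 CPM before and 187, 189 and 186 CPM at 1 h (1.29 ± 0.076, adjusted p = 2.4e-18). GPT2, which carries glucose phosphate into plastids, stood at 5.63, 6.21 and 6.36 CPM and 36, 32.1 and 41.2 CPM (2.58 ± 0.15). STP13, a hexose importer, and SWEET2, a vacuolar sugar transporter, rose, with log2 fold changes of 2.15 ± 0.12 and 1.36 ± 0.13. The trehalose-phosphate phosphatases TPP4 and TPPG, chosen after their values were seen, rose, with log2 fold changes of 3.59 ± 0.28 and 2.62 ± 0.41. No T0 library overlapped an NS1H library for any of them.

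On the falling side stood the clock. Of 12 tested clusters of morning clock genes 7 fell and 1 rose, with a median of -0.30. LHY, the MYB factor at the core of the morning loop, stood at 115, 135 and 125 CPM before and 63.1, 72.7 and 69.3 CPM at 1 h (-0.87 ± 0.12, adjusted p = 9.22e-06). RVE1, a REVEILLE factor that links the clock to auxin, stood at 23, 27.4 and 25.4 CPM and 8.31, 8.93 and 7.29 CPM (-1.63 ± 0.14, adjusted p = 4.58e-13). RVE6 and LNK1, an activator of evening genes and its coactivator, fell, with log2 fold changes of -1.79 ± 0.24 and -0.72 ± 0.11. All 3 libraries of NS1H lay below all 3 of T0 for each. The single rise was that of LNK2, a coactivator related to LNK1 and named after its values were seen, and it was not called without T0 replicate 1 or without T0 replicate 2.

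Day and evening clock genes were divided. Of 19 tested clusters 4 rose and 3 fell, with a median of 0.11. GI, the GIGANTEA protein, went from 109, 99.4 and 111 CPM to 134, 138 and 154 CPM (0.41 ± 0.068, adjusted p = 8.82e-06). APRR1, also known as TOC1, rose from 45 ± 0.826 to 62.6 ± 2.55 CPM (0.48 ± 0.080). The cluster named APRR5, a pseudo-response regulator whose nearest plant entry is APRR9, instead fell. It stood at 76.1, 70.9 and 87.3 CPM before and 48.3, 40.2 and 42.1 CPM at 1 h (-0.84 ± 0.081, adjusted p = 1.81e-11). PRR95, a homolog of APRR5 named from rice, fell, with a log2 fold change of -1.1 ± 0.16. At 3 h the unbent stems had LHY at 19.4 ± 0.980, GI at 226 ± 19.3 and APRR5 at 88.3 ± 11 CPM. At 24 h they had 87.5 ± 2.93, 116 ± 3.14 and 82.9 ± 2.34 CPM (SD, n = 3). At 72 h they had 69.0 ± 10.75, 120.2 ± 7.07 and 83.1 ± 6.31 CPM, so LHY then stood near its 1 h mean of 68.4 CPM. LHY thus stood lowest and GI highest at 3 h among the unbent groups, while the 1 h level of APRR5 was the lowest of the 5.

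Clock outputs, the Dof repressors, CONSTANS-like factors and cryptochromes, fell in 18 and rose in 6 of 45 tested clusters, with a median of -0.28. CRY1, a blue light receptor, stood at 80.6, 78.6 and 82.2 CPM before and 38.7, 33.3 and 32.3 CPM at 1 h (-1.21 ± 0.093, adjusted p = 2.75e-14). CDF3, a cyclic Dof factor that represses flowering genes in the morning, was among the 12 largest falls, at 20.1, 25 and 18.6 CPM and 3.6, 4.98 and 2.77 CPM (-2.49 ± 0.19, adjusted p = 8.02e-14). CDF2, of the same family, fell too (-1.78 ± 0.18), whereas COL15, a CONSTANS-like factor, went from 12 ± 1.16 to 26.9 ± 0.926 CPM (1.16 ± 0.12, adjusted p = 1.13e-10). The groups did not overlap for any of these 4 genes.

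**Figure D3:**
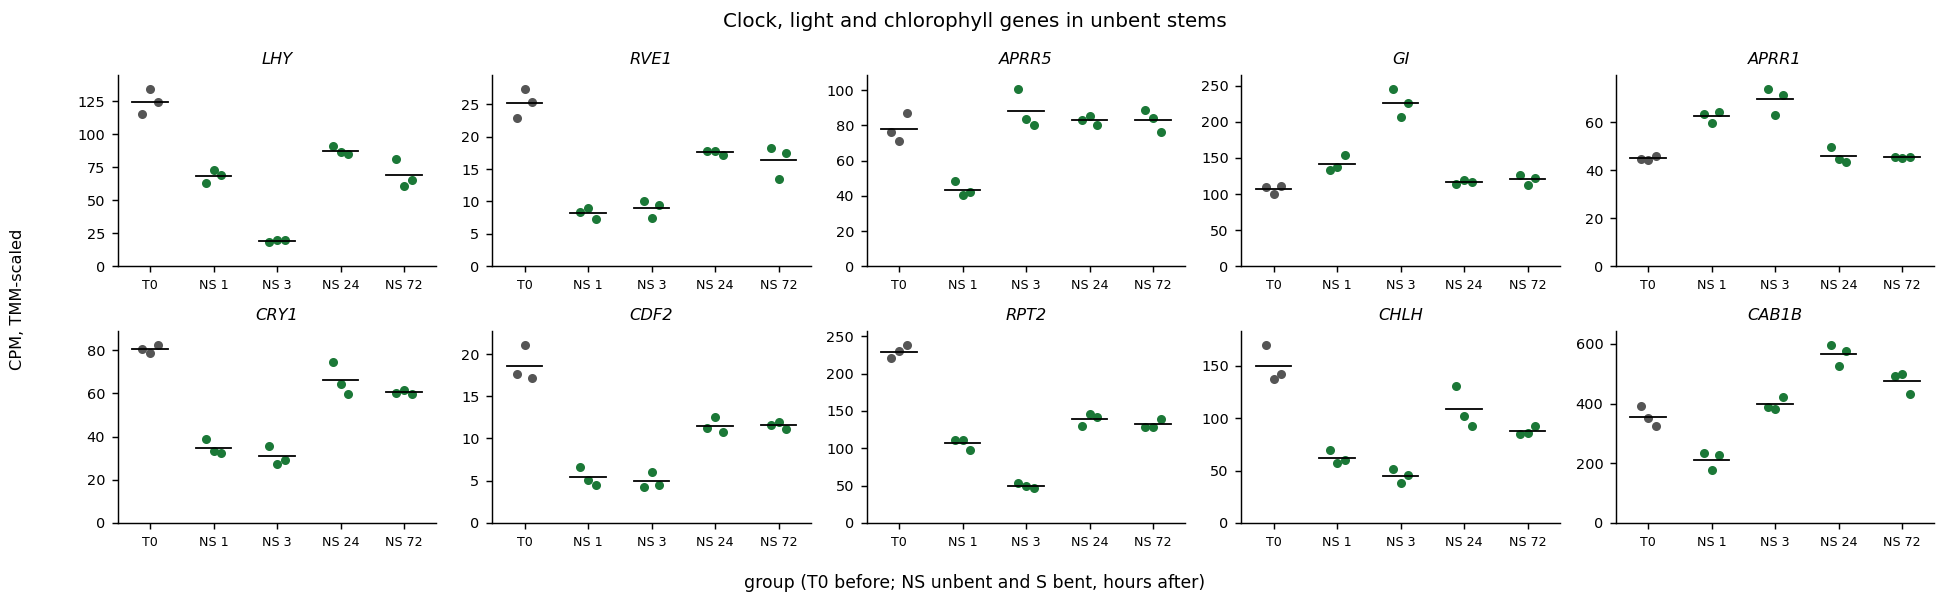
Level of 10 clock, light and chlorophyll genes in every library of T0 and of the unbent stems at 1, 3, 24 and 72 h, in CPM on axes that start at 0; points are libraries and bars are means. LHY falls from 125 CPM in T0 to 68.4 CPM at 1 h and 19.4 CPM at 3 h. It stands at 87.5 CPM at 24 h and 69.0 CPM at 72 h, whereas GI stands highest at 3 h, at 226 CPM.

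Light signalling fell in 12 and rose in 3 of 57 tested clusters, with a median of -0.13. RPT2, which relays the signal of the phototropin receptors, stood at 220.2, 230.0 and 238 CPM before and 111, 111 and 98.2 CPM at 1 h (-1.1 ± 0.074, adjusted p = 1.77e-16). PIF3, a phytochrome-interacting factor, and SPA1, a partner of the COP1 ubiquitin ligase, fell, with log2 fold changes of -0.78 ± 0.12 and -0.57 ± 0.10. ELIP1, a photoprotective early light-induced protein, stood at 16.9, 22.5 and 12.7 CPM and 2.77, 0.582 and 3.5 CPM (-2.9 ± 0.65, adjusted p = 0.00507). The NS1H libraries all lay below T0 for these genes, and those of ELIP1 were the most scattered.

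Of 20 tested clusters of chlorophyll synthesis 3 fell. CHLH, the large subunit of magnesium chelatase, stood at 169.6, 138 and 142 CPM and 69.4, 57.1 and 60.2 CPM (-1.27 ± 0.12, adjusted p = 1.94e-08), and CAO, the enzyme that makes chlorophyll b, fell, with a log2 fold change of -0.94 ± 0.10. The fall of GUN4, a regulator of the chelatase, was not called without NS1H replicate 2 or without T0 replicate 1. Nuclear photosynthesis genes fell in 19 and rose in 1 of 81 tested clusters, with a median of -0.20. This count of falls was 8 without NS1H replicate 2 and 9 without T0 replicate 1, while the rises numbered 0 to 2 over the 6 omissions. The antenna protein CAB1B stood at 391, 351 and 323 CPM before and 233, 178 and 226 CPM at 1 h (-0.74 ± 0.074, adjusted p = 5.31e-10), and its groups did not overlap. LHCA4 of photosystem I and CAP10A, the CP24 protein of photosystem II, fell by similar amounts (-0.74 ± 0.086 and -0.75 ± 0.095). The levels at 24 h were 565 ± 35.2 CPM for CAB1B and 494 ± 29.3 CPM for LHCA4, with both means above those of T0.

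The same antenna genes and the small subunit of Rubisco serve as markers of green mesophyll cells. Of 32 tested clusters 11 fell (7 without NS1H replicate 2), and their summed level was 5821 to 6681 CPM in T0 and 4693 to 5576 CPM in NS1H. All 11 falls were of antenna clusters, while other antenna clusters of high level, such as LHCB5 (0.013), did not pass. No cluster of the Rubisco small subunit passed. The highest of these stood at 344 CPM in T0 and 327 CPM in NS1H (-0.073 ± 0.115). Another lay at 0.024, and the remaining ones, of lower level, lay between -0.90 and -0.35. In whole stems, fewer cells of a type and less RNA per cell cannot be told apart. No marker of the list was at 0 in all 6 libraries, and the part of these cells in the lower photosynthesis genes was not tested.

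Nitrogen and sulfur genes fell in 17 and rose in 11 of 97 tested clusters, with a median of -0.15. SULTR1;3, a sulfate transporter, stood at 74.7, 72.9 and 67.1 CPM before and 39.95, 37.8 and 37 CPM at 1 h (-0.90 ± 0.097, adjusted p = 1.33e-09). APR3, the reductase that commits sulfate to assimilation, stood at 129, 123 and 125 CPM and 60.03, 69.2 and 66.4 CPM (-0.95 ± 0.095, adjusted p = 4.01e-09). Both clusters stood lower in every NS1H library. NPF2.10, a glucosinolate transporter in Arabidopsis, went the other way and rose, with a log2 fold change of 1.31 ± 0.16, and NPF5.8 of the same family fell, with a log2 fold change of -1.11 ± 0.12.

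Genes of cell wall expansion went both ways in nearly equal number. Of 146 tested clusters 28 rose and 29 fell, with a median of -0.094. Those that rose included EXLA1, an expansin-like protein chosen after its values were seen, at 12.9, 14.1 and 19.1 CPM before and 243, 254 and 325 CPM at 1 h (4.15 ± 0.33, adjusted p = 2.21e-08). EXLA2 of the same family, the pectinesterase PME31 and the EXORDIUM-like protein EXL2 rose, with log2 fold changes of 2.06 ± 0.19, 1.17 ± 0.079 and 1.5 ± 0.12. Of the alpha-expansins, which loosen walls for growth, a cluster of EXPA8 stood at 22.2, 20.4 and 15.4 CPM and 4.36, 4.92 and 3.9 CPM (-2.13 ± 0.21, adjusted p = 2.93e-08). The polygalacturonase At1g48100, which cuts pectin, stood at 24, 21.9 and 18.1 CPM and 3.53, 4.59 and 3.11 CPM (-2.51 ± 0.21, adjusted p = 1.02e-10). The groups did not overlap for any of these wall genes.

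Growth hormones differed among themselves. Of 33 tested gibberellin clusters 9 rose and 2 fell, with a median of 0.13. GID1B, a gibberellin receptor, and GAI1, a DELLA repressor whose breakdown it triggers, both rose (1.01 ± 0.15 and 0.47 ± 0.063), while another DELLA cluster, GAI, fell (-0.68, adjusted p = 1.04e-05). GID2, the F-box protein that marks the DELLA for breakdown, stood at 66.2, 67.4 and 65 CPM before and 42.6, 41.5 and 42.1 CPM at 1 h (-0.65 ± 0.081, adjusted p = 1.92e-08). GASA14, a gibberellin-regulated peptide, rose, with a log2 fold change of 1.97 ± 0.23, and 2 of the other rises were gibberellin 2-oxidases, which inactivate the hormone: GA2OX2 (4.94, adjusted p = 9.48e-05) and GA2OX1 (2.68, adjusted p = 0.00142). GAI and both oxidases were picked after their values were seen, and their SE and levels are not given here. In spite of its fold change GA2OX2 was not among the largest rises, so its cluster did not meet the naming rule in full.

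Auxin genes fell in 22 and rose in 16 of 125 tested clusters, with a median of -0.025. SAUR78, a small auxin-responsive protein, was among the largest rises, at 0.335, 0.194 and 0.578 CPM and 10.5, 9.18 and 13.8 CPM (4.85 ± 0.51, adjusted p = 5.39e-07), while SAUR36 and SAUR50 fell, with log2 fold changes of -1.48 ± 0.18 and -1.26 ± 0.18. IAA26, a repressor of auxin responses, rose, with a log2 fold change of 1.48 ± 0.18. Brassinosteroid and cytokinin genes rose in 7 and fell in 11 of 63 tested clusters, and 5 fell without NS1H replicate 3. BEH4 of the BZR1 family rose, with a log2 fold change of 1.42 ± 0.089, and the cytokinin response regulator ARR3 fell, with a log2 fold change of -0.70 ± 0.081.

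Ribosomal proteins showed many small rises. Of 216 tested clusters of cytosolic ribosomal proteins 37 rose (17.1%, against 6.46% of all clusters tested) and 192 of the 216 lay above 0. The median was 0.14, against -0.027 over all clusters tested. RPS16 stood at 116, 124 and 123 CPM before and 147, 149 and 155 CPM at 1 h (0.31 ± 0.061, adjusted p = 0.000144). The count of rises fell to 21 without NS1H replicate 1, to 24 without NS1H replicate 2, to 16 without NS1H replicate 3 and to 16 without T0 replicate 1. With upper-quartile scaling 16 rose and 1 fell, with a median of 0.11. Their summed level was 22590 to 23320 CPM in T0 and 25380 to 25590 CPM in NS1H. The mean ribosomal RNA share was higher in T0, at 5.33% ± 2.80, than in NS1H, at 2.98% ± 0.27 (SD, n = 3). T0 replicate 3, at 3.06%, lay within the range of NS1H. RPS16 was still called without the clusters of ribosomal RNA, virus, insect and human matches (log2 fold change 0.33). The count over the list in that fit is not given here, and a part of ribosomal RNA in these rises was not tested.

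Most of the remaining gene groups held calls in both directions. Over all clusters tested 6.46% rose and 3.85% fell. The shares of lignin genes (8.03% and 5.11%) and cell cycle genes (8.79% and 5.5%) and the falls of flavonoid genes (3.45%) lay near these. Heat shock proteins and their factors rose in 19 and fell in 8 of 142 tested clusters, with ATJ11, a chloroplast DnaJ protein, at 5.83, 4.85 and 5.78 CPM before and 45.5, 51.7 and 51.2 CPM at 1 h (3.17 ± 0.28, adjusted p = 1.02e-07). The falls numbered 4 without NS1H replicate 1 and 5 without NS1H replicate 2 or 3 or T0 replicate 1 or 3. Lignin genes rose in 11 and fell in 7 of 137 tested clusters, and the falls numbered 3 without NS1H replicate 2 and 4 without T0 replicate 1 or replicate 3. CSE, an esterase of lignin synthesis, rose, with a log2 fold change of 1.63 ± 0.17, and the peroxidase PER4 fell, with a log2 fold change of -1.86 ± 0.16. Cuticle genes rose in 6 and fell in 1 of 51 tested clusters, and the 1 fall was not called without NS1H replicate 3, T0 replicate 1 or T0 replicate 3. The rises were led by KCS11, an elongase of very-long-chain fatty acids (2.46 ± 0.23), and GPAT3 (2.24 ± 0.24). Aquaporins rose in 6 and fell in 3 of 40 tested clusters (1 fall without NS1H replicate 2), among them PIP2-8 and PIP2-2 of the plasma membrane, at 0.49 ± 0.074 and -0.42 ± 0.097. Cell cycle genes rose in 8 and fell in 5 of 91 tested clusters (3 falls without NS1H replicate 3), with the cyclin CYCB2-3 at 0.76 ± 0.13 and CYCD2-1 at -0.90 ± 0.17. Of 29 flavonoid clusters 1 fell, named CYP75B137 after a flavonoid hydroxylase (-1.76 ± 0.25), and 2 fell when any 1 T0 replicate was omitted. The nearest plant entry of CYP75B137 is a cytochrome P450 of another family, 76C2-like, so its flavonoid role is in doubt. CHS4, the chalcone synthase at the entry of flavonoid synthesis, was at 65.8, 75.2 and 66.5 CPM and 54.1, 67.3 and 66.2 CPM, with overlapping libraries (adjusted p = 0.711).

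Of stem tissue markers, xylem clusters rose in 7 of 43 tested, against 6.46% of all clusters, with a median of 0.028. Of these 5 were named IRX9H, IRX10 or IRX10L, which take part in xylan synthesis, such as IRX10 (0.87 ± 0.13, adjusted p = 2.56e-05). The other 2 carry names in doubt: the cluster named CESA8 after a rice protein (0.38 ± 0.069) has cellulose synthase subunit 3 as its nearest plant entry, and the cluster named XCP1 (2.95 ± 0.29) a traB domain protein. The other clusters named CESA4, CESA7 or CESA8 lay between -0.30 and 0.24 and did not pass. Nor did a further cluster of IRX9H (0.124) and of IRX10L (0.076), or the clusters named IRX9 (0.115), IRX14H (-0.065), IRX14 (-0.103) and IRX7 (-0.157). No phloem cluster of 19 and no epidermis cluster of 15 passed in edgeR, DESeq2 or limma-voom. At an unadjusted p of 0.05 edgeR had 1 phloem and 0 epidermis clusters. The sieve element protein SEOB was at 294, 345 and 269 CPM before and 301, 356 and 325 CPM at 1 h, with overlapping libraries (adjusted p = 0.505). Meristem markers rose in 3 of 25 clusters, all KNOTTED-like homeobox genes, of which KNAT6 rose, with a log2 fold change of 1.16 ± 0.18. Of 10 root markers 1 fell, SHR, a regulator of root layers (-0.47 ± 0.10). Of 6 flower markers none passed in any of these tools (1 at an unadjusted p of 0.05 in edgeR), AP1 standing at 16.9, 14.2 and 16.4 CPM and 12.6, 14.8 and 12.3 CPM.

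Beyond these lists, the 12 largest falls named by rule were led by NHL26. This plasmodesmal protein of the NDR1/HIN1-like family, which in Arabidopsis affects sugar export through the phloem, stood at 16.9, 19.9 and 16.1 CPM before and 2.01, 2.78 and 1.81 CPM at 1 h (-3.0 ± 0.19, adjusted p = 4.03e-17). RHA2A, a RING-type ubiquitin ligase, stood at 35.7, 36.3 and 29.8 CPM and 7.41, 7.7 and 6.89 CPM (-2.21 ± 0.14). The LOB domain factor LBD25, the acyl-CoA ligase AAE11 and the F-box protein At1g11270 fell, with log2 fold changes of -2.23 ± 0.17, -2.3 ± 0.20 and -2.0 ± 0.20. For all 5 the libraries of the groups were well apart, and the mean at 24 h lay between 16 CPM (At1g11270) and 31.4 CPM (AAE11), nearer to T0 than to NS1H.

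Some of the genes named by rule rest on 1 library. DIR11, a dirigent protein, stood at 4.02, 7.44 and 41.9 CPM in T0 and 3.19, 2.59 and 1.92 CPM in NS1H (-2.82 ± 0.78, adjusted p = 0.0226), and its log2 fold change was -1.16 without T0 replicate 3, where it no longer passed (adjusted p = 0.387). The chloroplast gene petB stood at 10.7, 35.6 and 4.47 CPM and 3.12, 4.46 and 4.24 CPM, and its log2 fold change of -2.09 ± 0.62 was -0.92 without T0 replicate 2 (adjusted p = 0.447). ORF1, whose best match is a replicase polyprotein of an insect virus, stood at 1.27, 4.14 and 0.315 CPM in T0 and 227, 5.3 and 24.8 CPM in NS1H (5.53 ± 1.67, adjusted p = 0.0395). It was 3.05 without NS1H replicate 1 (adjusted p = 0.361). In each of these 3 cases a single library carried most of the level of its group.

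**Figure D4:**
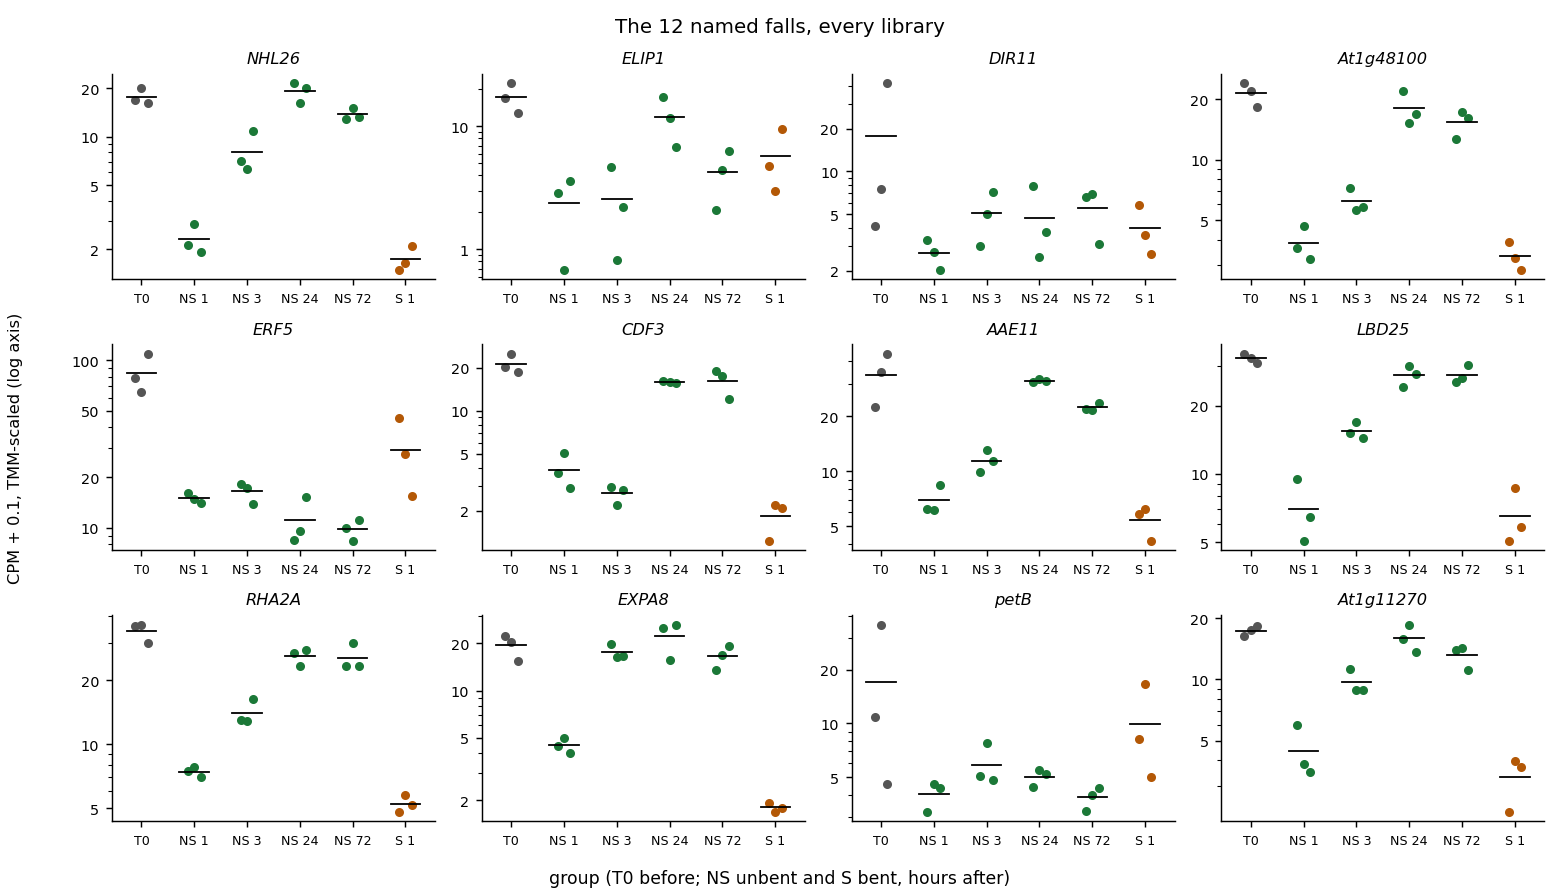
Level of the 12 named falls in every library of T0, of the unbent groups at 1, 3, 24 and 72 h (NS) and of the bent stems at 1 h (S), as CPM + 0.1 on a log axis; points are libraries and bars are means. NHL26 goes from 17.6 CPM in T0 to 2.2 CPM at 1 h and back to 19.2 CPM at 24 h, while ERF5 stays at 11 CPM at 24 h and DIR11 and petB each have 1 high T0 library.

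Most of the named rises had receded by 3 h. At 3, 24 and 72 h the unbent stems had mean ERF025 levels of 46.2, 0.400 and 0.102 CPM, and DREB1D levels of 7.35, 0.231 and 0.545 CPM. TIFY9 stood at 10.1, 2.93 and 2.57 CPM, and LOX3.1 at 6.55, 3.37 and 2.91 CPM. BHLH92 was back below its T0 mean at 3 h, whereas ERF110 was at 35.5 ± 17.6 CPM then. For ERF025, DREB1A, DREB1D, WRKY40 and LOX3.1 the T0 means lay above those at 24 and 72 h. T0 replicate 3 was the highest T0 library in 9 of the 12 largest rises, and NS1H replicate 3 the highest of its group in 11 of them.

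Libraries outside the comparison gave levels of the same clusters in bent stems, over another span of time that does not include the time before the treatment. Bent stems at 1 h (S1H) and at 24 h (S24H) share no library with NS1H or T0 and differ in the hour after the treatment, while both had been bent. Between them 11788 clusters passed (22.3% of those tested), 6177 higher at 1 h (11.7%) and 5611 lower (10.6%), with 6.02% at least 2-fold higher and 3.63% at least 2-fold lower. Of the 3416 clusters that rose in unbent stems, 2659 (77.8%) were also higher in S1H, which is 43.1% of the clusters higher there, and 27 were called lower. Of the 2039 that fell, 1399 (68.6%) were also lower in S1H, which is 24.9% of that list, and 53 were called higher. The sign was the same for 93.2% of the rises and 88.5% of the falls, where 47.7% of all clusters tested lay above 0 and 52.3% did not. Of the 1485 rises of at least 2-fold, 1294 (87.1%) were also called higher in S1H, and of the 639 falls of that size 376 (58.8%) were also called lower. Over all clusters tested these calls made up 11.7% and 10.6%. Within this contrast bending and the hours cannot be told apart.

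Named genes differed in this respect. ERF025 was at 325 ± 77.8 CPM in S1H and 0.157 ± 0.231 CPM in S24H (log2 difference 11.05 ± 0.57, adjusted p = 1.18e-11), and TIFY9 at 105 ± 13.3 and 1.84 ± 0.243 CPM (5.81 ± 0.22). In the unbent groups at the same hours ERF025 stood at 169 ± 37 CPM in NS1H and 0.400 ± 0.224 CPM in NS24H, and TIFY9 at 94.5 ± 9.16 and 2.93 ± 0.690 CPM. Of the falls, NHL26 was at 1.64 ± 0.323 and 18.9 ± 2.61 CPM (-3.51 ± 0.20). These followed the contrast of unbent stems in direction. LHY and RPT2 did not pass there, with log2 differences of -0.18 ± 0.12 (adjusted p = 0.33) and -0.12 ± 0.074 (adjusted p = 0.287), and ERF5 had the opposite sign (1.67 ± 0.32, adjusted p = 0.000568). By list, 50 of 91 ethylene and ERF clusters, 49 of 109 calcium clusters and 25 of 69 jasmonate clusters were higher in S1H, and 43 of 81 photosynthesis clusters were lower. Of the 12 morning clock clusters 4 were lower and 2 higher.

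**Figure D5:**
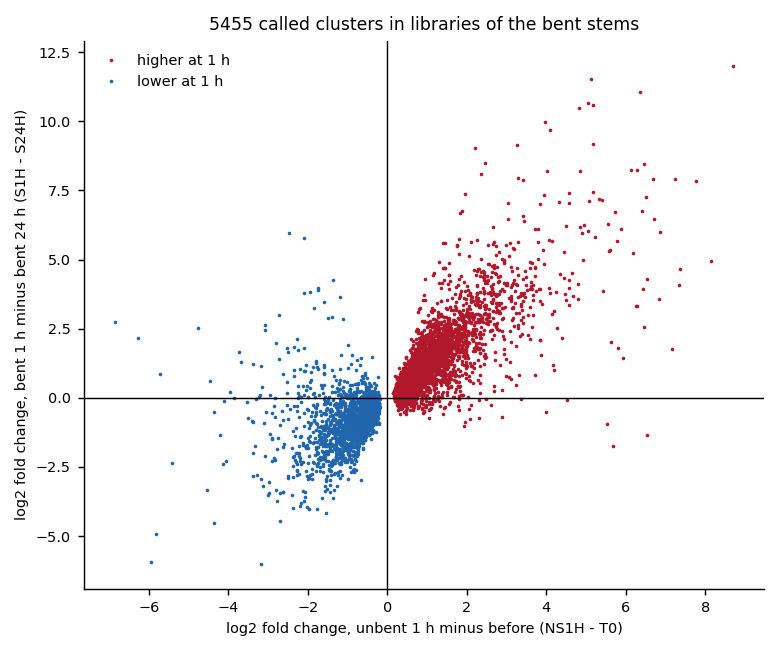
Log2 fold change of the 5455 clusters called between NS1H and T0 (horizontal axis) against the log2 difference between bent stems at 1 h and at 24 h (vertical axis), red for clusters higher and blue for those lower at 1 h in unbent stems. Of the 3416 red points 93.2% lie above 0 on the vertical axis and of the 2039 blue points 88.5% lie below it.

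Sequences that are not plant mRNA complete the account. None of the 30 tested clusters of Hydrangea ringspot virus passed in edgeR, DESeq2 or limma-voom (4 at an unadjusted p of 0.05 in edgeR; 1 rose without NS1H replicate 2 or 3), with a median log2 fold change of -0.97. The viral replication protein was at 27660, 27690 and 19400 CPM in T0 and 11470, 23050 and 14880 CPM in NS1H, so the groups overlapped. Chloroplast and mitochondrial transcripts fell in 13 and rose in 4 of 140 tested clusters, and the count of falls was 2 without NS1H replicate 2 or T0 replicate 2, 3 without NS1H replicate 1, 5 without NS1H replicate 3, 8 without T0 replicate 1 and 45 without T0 replicate 3. Their summed level was 816.2 to 1524 CPM in T0 and 886.4 to 928.5 CPM in NS1H, which overlap. The rises numbered 2 without NS1H replicate 3 or T0 replicate 1, and the calls in both directions numbered 31 in DESeq2 and 3 in limma-voom. The ycf2-A transcript, of a large chloroplast reading frame, stood at 2.61, 2.26 and 1.73 CPM before and 9.69, 9.31 and 9.26 CPM at 1 h (2.1 ± 0.34, adjusted p = 8.49e-05), while TIC214 stood at 1.94, 6.14 and 0.630 CPM and 0.208, 0.0647 and 0.339 CPM (-3.74 ± 0.74, adjusted p = 0.000583), a call lost in the fit of the 6 libraries alone (adjusted p = 0.114). T0 replicate 2, the library with the most ribosomal RNA, held most of the TIC214 level before. Of 61 tested clusters of ribosomal RNA 1 rose and 6 fell, and 1 to 10 fell when single libraries were omitted, with 17 calls in DESeq2 and 2 in limma-voom. None of 36 insect and none of 16 human clusters passed in edgeR or limma-voom, and DESeq2 called 1 insect cluster. At an unadjusted p of 0.05 edgeR had 9 and 2 of them, and 5 insect clusters fell without T0 replicate 1.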

How the data were processed

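Per the labels, poly(A)-enriched libraries of whole stems were read in pairs of 150 bases on an Illumina NovaSeq 6000, with 3 biological replicates in each of 9 groups. The authors deposited expected counts per assembled cluster, and the submitters' processing notes name RSEM 1.2.28, while the assembler and further settings are not given in the sources used here. Of the deposited values 8.05% were not whole, and they were rounded here. The authors also deposited FPKM values, which served only for alternative tests on log2(FPKM + 0.1) and log2(FPKM + 1).

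All 27 libraries entered edgeR 4.0.16 (R 4.3.3): filterByExpr over the 9 groups, TMM scaling, a robust quasi-likelihood fit with 1 coefficient per group, and Benjamini-Hochberg adjustment over the 52918 tested clusters at 0.05. A standard error is the absolute log2 fold change divided by the root of its F statistic. CPM values are TMM-scaled. T0 libraries held 15.0 to 18.3 M and NS1H libraries 14.4 to 17.8 M expected counts. The common biological coefficient of variation was 0.158. In data simulated from these libraries the test recovered 58 of 100 clusters changed 2-fold and 93 of 100 changed 4-fold, with 8 false calls. No 2 replicates of a group were alike within sampling noise (chi-square per degree of freedom 4.68 to 20.7).

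Named genes are the 12 largest rises and 12 largest falls with a Swiss-Prot match, a mean of at least 10 CPM in the higher group and no overlap of libraries, 1 cluster per symbol, and up to 4 clusters of smallest p per gene list. Of a list with fewer than 2 calls, the 2 members of highest level could be given. A list is a set of clusters whose annotation matches fixed gene names. The comparison, members and lists were chosen with earlier results of these data known, and some search patterns were corrected after counts had been seen, to remove clusters of other gene families. Swiss-Prot matches were available for 32636 clusters. Alternatives used DESeq2 1.42.0, limma 3.58.1 with voom, other scalings and filters, a replicate block, and the omission of each library. Pandas 2.3.3 and matplotlib 3.10.9 served for tables and figures.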

Additional observations from a re-analysis of the deposited data

How the results depend on the processing

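The count of clusters called between NS1H and T0 (5455) lay between 4122 and 4963 when each of the 6 libraries was omitted in turn, the lowest without NS1H replicate 3, and between 4959 (limma-voom) and 6365 (the 6 libraries alone with the replicate number as a block) under the other settings except a minimum fold. Upper-quartile scaling moved the median of all clusters from -0.027 to -0.063 and the share of calls that were higher from 62.6% to 56.3%. That block fit, and the counts of list members under other scalings and without single libraries, were chosen after seeing the data. Requiring at least 2-fold change left 2124 calls, and 5109 of the 11788 between S1H and S24H, which otherwise stayed between 9375 and 11943. With the replicate block there were 5573 calls, and the 6 libraries alone gave 5762 without the block and 6365 with it. Same-numbered libraries of the 2 groups shared little of their deviations (r of 0.042, 0.096 and 0.059), none above 0.1, although each library correlated best with its own number. The labels do not say that the numbers mark a shared day or plant, so they were not taken as pairs.

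Of 157 named clusters 142 were called, and 127 of these stayed called under each of 19 settings other than the fold minimum. ORF1, DIR11 and petB were lost in most, 50 lay under 2-fold, and DREB1A, DREB1D, ELIP1 and CPK1 were lost only with the 6 libraries and the block (adjusted p = 0.0542, 0.0843, 0.225 and 0.0707). Uncalled log2 fold changes near 0 changed sign: FDH, an epidermal elongase at 0.036, was at -0.001 with upper-quartile scaling and between -0.12 (without NS1H replicate 1) and 0.14 (without NS1H replicate 2) when libraries were omitted, and the phloem callose synthase CALS7, at -0.015, was at 0.008 with no filter and between -0.043 (without T0 replicate 3) and 0.065 (without T0 replicate 2), with 0.042 without NS1H replicate 1. The insect cathepsin Cp1, at -3.84, ranged from -4.97 (without NS1H replicate 2) to 0.71 (without T0 replicate 3). The cause was not tested. At 14.4 to 18.3 M counts per library, levels under 1 CPM rest on few reads.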
